A study of Mus musculus with 4 samples.

Results

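Il17a, Il17f, Il23r, Il23a, Ccr6, Trdc and Tcrg-C1 are 7 of the 33696 genes counted in single leukocytes of mouse pancreatic tumours. They are the genes of the IL-17 axis and of the gamma-delta T cell receptor, and they were followed in gamma-delta T cells, CD4 T cells and myeloid cells under 4 treatments. The tumours were subcutaneous KPC tumours, grown from a mouse pancreatic cancer line whose alleles include Trp53 LSL.R172H/+ recombined by Pdx1-Cre, in male C57BL/6 mice aged 8 to 10 weeks. Mice were left untreated, or received the STING agonist ADU-S100 once into the tumour at 2 µg, the agonistic anti-LTβR antibody 4H8 in 4 intraperitoneal injections of 100 µg, or both agents (combination). Tumours were resected on day 14, 10 tumours were pooled per group, and live CD45+ cells were sorted and sequenced with a 5′ droplet kit. Each group is 1 library. The treatments therefore have no replicate check, a difference between treatments is given as values without a test, and each interval below is a 95% interval that covers counting error only.

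Interleukin-17A and interleukin-17F are cytokines that act on stromal, epithelial and myeloid cells and draw in neutrophils. They are made by Th17 cells, which are CD4 T cells, and by innate-like gamma-delta T cells that carry the transcription factor RORα and respond to IL-23 and IL-1β without new priming. IL-23 is made of p19, encoded by Il23a, and p40, encoded by Il12b and shared with IL-12. Its receptor pairs the product of Il23r with that of Il12rb1. CCR6 is the receptor for the chemokine CCL20. Trdc and Tcrg-C1 encode constant regions of the delta and gamma chains of the gamma-delta T cell receptor.

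Promoter windows in RefSeq (build GRCm38.p6, 250 bases before to 50 after each annotated start) were found for 4 of the 7 genes, namely Il17a, Il17f, Il23r and Ccr6. The windows of the cytokine pair and of the receptor gene are shown because these 3 genes were detected in the same cells below. Capitals mark AGGTCA, the core site bound by RORα, on either strand (TGACCT when it lies on the other strand), and each sequence runs 5′ to 3′ on the strand of its gene.
Il17a, chr1:20730655-20730954, plus strand: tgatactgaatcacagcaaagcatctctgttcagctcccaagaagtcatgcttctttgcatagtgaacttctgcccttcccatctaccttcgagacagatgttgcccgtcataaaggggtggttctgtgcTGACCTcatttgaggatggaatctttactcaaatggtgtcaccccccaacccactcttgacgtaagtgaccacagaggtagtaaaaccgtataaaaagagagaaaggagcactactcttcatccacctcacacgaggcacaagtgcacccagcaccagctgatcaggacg
Il17f, chr1:20784221-20784520, minus strand: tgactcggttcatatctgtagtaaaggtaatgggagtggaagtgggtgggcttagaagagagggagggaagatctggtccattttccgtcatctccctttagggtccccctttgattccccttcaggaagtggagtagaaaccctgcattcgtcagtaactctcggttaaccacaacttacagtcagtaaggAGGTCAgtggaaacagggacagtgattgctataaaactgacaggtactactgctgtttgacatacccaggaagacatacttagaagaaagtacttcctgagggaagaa
Il23r, chr6:67491806-67492105, minus strand: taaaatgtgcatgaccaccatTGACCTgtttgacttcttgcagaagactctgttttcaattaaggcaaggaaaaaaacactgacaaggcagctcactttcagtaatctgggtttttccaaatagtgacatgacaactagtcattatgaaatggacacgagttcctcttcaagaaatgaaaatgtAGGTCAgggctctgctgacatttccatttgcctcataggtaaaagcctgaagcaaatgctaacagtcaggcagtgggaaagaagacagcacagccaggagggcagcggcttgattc
The match in Il17a began at position -120 from the annotated start, that in Il17f at position -58, and those in Il23r at positions -229 and -66. Ccr6 has 2 windows, of which chr17:8235793-8236092 on the plus strand held 1 match at position -44. Of all 32851 windows of this length, 5340 (16.3%) held at least 1 match, so the letters are common and the matches are only a description of these windows.

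The libraries held 8730 untreated, 15404 ADU-S100, 14634 anti-LTβR and 16322 combination cells, of which 7524, 13444, 13223 and 14667 were kept. The median depth of the deposited cells was 4712, 3187, 3730.5 and 2157.5 unique molecular identifiers (UMIs, counted RNA molecules) in the same order, so the combination library was the shallowest. Levels are therefore given as UMIs of the gene per 1000000 UMIs of the cells in question (CPM), and shares of cells with a UMI are read with the depth in view. Between 34 and 83 barcodes were shared by each pair of libraries. Neutrophils made up 6.69% of leukocytes in untreated, 39.98% in ADU-S100, 7.46% in anti-LTβR and 8.98% in combination tumours.

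Gamma-delta T cells were rare in all 4 groups. A cell of the T class counted as gamma-delta when it held a Trdc UMI and none of Trac, Trbc1 and Trbc2, the constant regions of the alpha-beta receptor. This gate held 37 untreated, 15 ADU-S100, 53 anti-LTβR and 36 combination cells, 141 in all. They were 0.502% (0.354 to 0.691), 0.113% (0.0635 to 0.187), 0.407% (0.305 to 0.532) and 0.250% (0.175 to 0.346) of leukocytes. The ratio to untreated was 0.226 (0.124 to 0.412) in ADU-S100, 0.811 (0.534 to 1.23) in anti-LTβR and 0.499 (0.315 to 0.788) in combination tumours. Among T cells alone the shares were close to each other, at 2.63%, 2.48%, 2.67% and 2.17%, and the intervals of all 3 ratios to untreated included 1. With each cell thinned to 1000 UMIs, the share of leukocytes in the anti-LTβR library was 1.12 times untreated (0.760 to 1.66) and that in the combination 0.711 times (0.463 to 1.09). The neutrophil share of leukocytes moved with the lower share in ADU-S100, and without neutrophils in the denominator the 4 shares were 0.538%, 0.189%, 0.440% and 0.275%.

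The gate took in a minority of the T cells with Trdc. Of 416 T cells with a Trdc UMI, 141 (33.9%) had no alpha-beta constant UMI, 18 had Trac only, 204 had Trbc1 or Trbc2 only and 53 had both kinds. Trac was found in 17.1% of T cells with Trdc and in 61.1% of those without it, whereas Trbc was found in 61.8% of T cells with Trdc. A UMI of a gamma constant gene was present in 79.8% of T cells with Trdc and in 17.0% of those without. Within the gate, 117 of 141 cells had a UMI of a CD3 gene and 104 had one of a gamma constant gene, while 46 entered on a single Trdc UMI and 10 had Ncr1, a receptor of natural killer (NK) cells. T cells with Trdc outside the gate, and not gated as CD4 or CD8, are called Trdc cells with alpha-beta UMIs here and are given beside the gate.

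Trdc and Tcrg-C1 differed in how far they marked T cells. Trdc had 378 untreated, 183 ADU-S100, 660 anti-LTβR and 245 combination UMIs in T cells, which were 67.2, 73.7, 102.3 and 74.2 CPM. Tcrg-C1 had 198, 93, 349 and 132 UMIs, which were 35.2, 37.5, 54.1 and 39.998 CPM. Both were highest in the anti-LTβR library, at 1.52 times untreated (1.34 to 1.73) for Trdc and 1.54 times (1.29 to 1.84) for Tcrg-C1, and the other 2 libraries had intervals that included 1. These are levels over a class whose clusters changed in proportion: cluster 8, led by Nsg2 and Ifngas1, held 19.6%, 38.2%, 44.2% and 47.2% of T cells. The clusters were made from the same cells' genes, and values within them, added after seeing the data, are a description. Within cluster 8 Trdc was at 131, 64.8, 120 and 88.6 CPM, and within cluster 11, led by Cd40lg, Scart1 and Il23r, at 207, 137, 107 and 102.02 CPM, so in neither was the anti-LTβR library the highest. Tcrg-C1 was at 36.3, 40.1, 46.1 and 23.7 CPM in cluster 8 and at 133, 69.4, 76.3 and 78.6 CPM in cluster 11. NK cells held 29.1% of all Trdc UMIs, with the transcript in 27.7%, 16.9%, 23.4% and 14.1% of NK cells, at 110, 60.8, 101 and 90.3 CPM. Tcrg-C1 was found in only 0.761%, 1.41%, 0.973% and 0.172% of NK cells, and B cells had no Trdc UMI in any library. T cells held 68.0% of Trdc UMIs and 94.96% of Tcrg-C1 UMIs. The 10 T cells with most Trdc held 31.0%, 48.6%, 20.6% and 35.1% of its T cell UMIs. For Tcrg-C1 these shares were 30.3%, 44.1%, 24.1% and 38.6%, so that both were most concentrated in the ADU-S100 library, where 10 of 605 T cells held nearly as many Trdc UMIs as the rest.

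**Figure D1:**
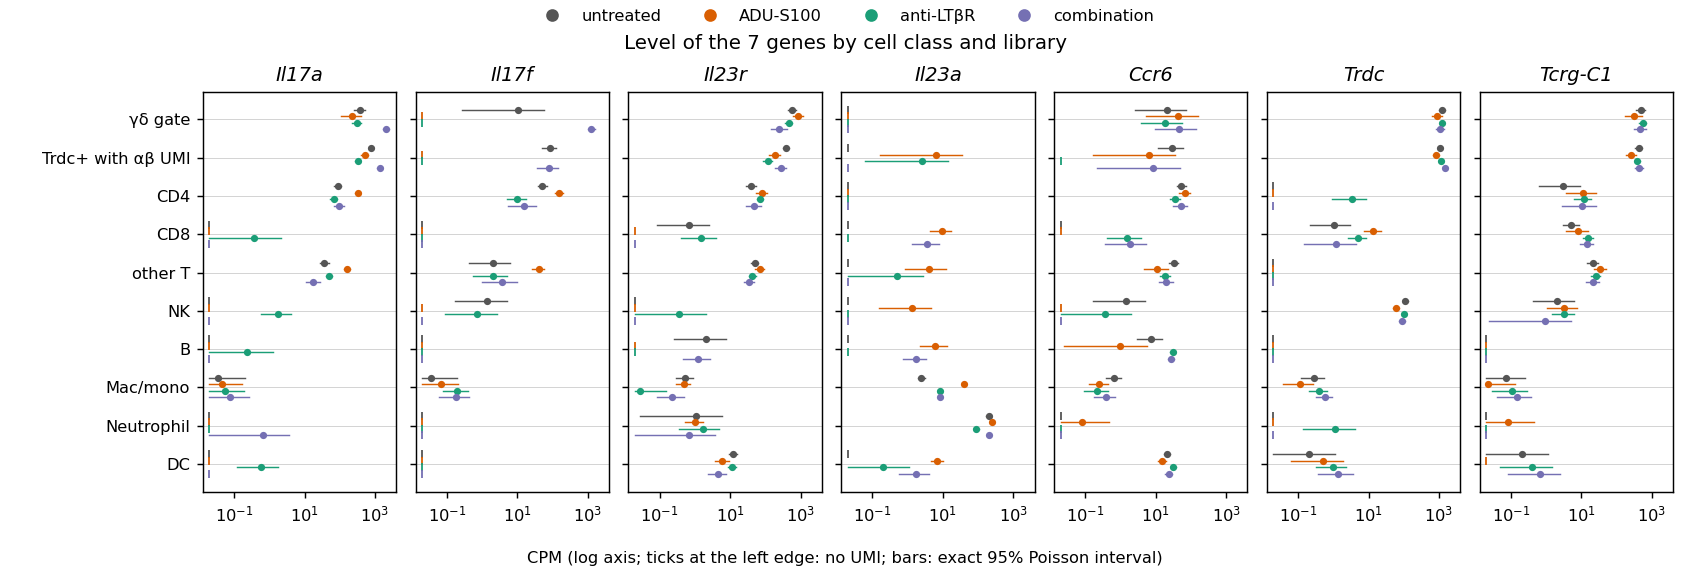
Level of each of the 7 genes (CPM, log axis, 1 panel per gene) by cell class, with 1 coloured point per library, bars for the exact 95% Poisson interval and ticks at the left edge where there was no UMI. Il17a, Il23r, Trdc and Tcrg-C1 lie furthest right in the gamma-delta gate and the Trdc cells with alpha-beta UMIs, except that the ADU-S100 point of Il17a is further right in CD4 T cells (329 CPM) than in the gate (219 CPM). Both of these classes require a Trdc UMI, so the position of Trdc was set by the gating. Il23a lies furthest right in neutrophils at 87.9 to 242 CPM.

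Il17a came from T cells and from few of them. Of 1441 Il17a UMIs, 98.8% lay in the T class, where 143 of 5654 cells held at least 1. The T class had 360 untreated, 357 ADU-S100, 361 anti-LTβR and 346 combination UMIs, in 48, 26, 46 and 23 cells. The UMI totals were thus alike, while the cells that carried them made up 3.41%, 4.30%, 2.32% and 1.39% of T cells. The level was 64.0 CPM (57.5 to 70.9), 144 CPM (129 to 160), 55.9 CPM (50.3 to 62.0) and 105 CPM (94.1 to 116). Against untreated this was 2.25 times (1.94 to 2.61) with ADU-S100, 0.875 times (0.754 to 1.015) with anti-LTβR and 1.64 times (1.41 to 1.91) with the combination. The share of T cells with Il17a moved the other way in the combination, at 0.406 times untreated (0.248 to 0.665), with the lower depth of that library beside it. These intervals treat UMIs as independent, which UMIs of 1 cell are not. Cluster 11 of the T class held all but 4 of the T cell Il17a UMIs, at 356, 650, 254 and 579 CPM. Within it Il17a was at 1.82 times untreated (1.57 to 2.12) with ADU-S100, 0.711 times (0.613 to 0.826) with anti-LTβR and 1.62 times (1.40 to 1.89) with the combination.

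A few cells decided the Il17a level of the combination library. The 3 T cells with most Il17a held 29.7% of its T cell UMIs in untreated, 42.6% in ADU-S100, 48.2% in anti-LTβR and 76.3% in combination tumours. The 10 with most held 65.0%, 83.8%, 73.7% and 93.4%. In combination tumours the first cell had 140 Il17a UMIs and the second had 104, so that these cells set the level of the whole class. Without the cell with most UMIs in each library, the ratio of combination to untreated was 1.09 (0.914 to 1.31) and that of anti-LTβR was 0.730 (0.619 to 0.862). The cell with 140 UMIs had 6 Trdc, 3 Tcrg-C1, 1 Trbc and 2 Trgv6 UMIs. The cell with 104 had 1 Trdc UMI, no Tcrg-C1 and no alpha-beta constant UMI, at a total of 1591 UMIs, and it also held 76 Il17f UMIs.

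**Figure D2:**
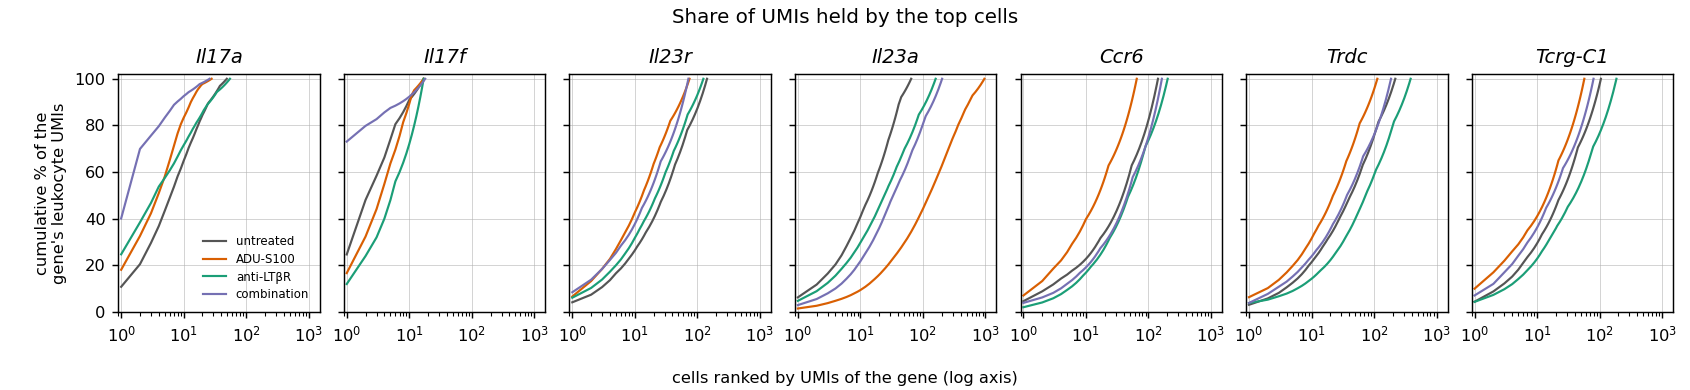
Cumulative share of each gene's UMIs over all leukocytes (percent, vertical axis) against the number of cells ranked by their UMIs of that gene (log axis), with 1 line per library. Of the 4 Il17a lines that of the combination library starts highest, with 75.6% in the first 3 cells against 29.6% in untreated. The combination line of Il17f holds 82.7% in its first 3 cells, and the Il23a line of ADU-S100 rises slowest, with 9.41% in the first 10 cells.

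Inside the gamma-delta gate, Il17a was found in 9 of 37 untreated, 3 of 15 ADU-S100, 6 of 53 anti-LTβR and 4 of 36 combination cells. These held 36, 10, 49 and 131 UMIs, at 371, 219, 306 and 2043 CPM. The single cell with most held 22.2%, 50%, 63.3% and 79.4% of them, so the combination value rests on 1 cell with 104 of 131 UMIs. The Trdc cells with alpha-beta UMIs held more Il17a than the gate, with 187, 80, 130 and 158 UMIs in 14, 4, 6 and 8 cells, at 768, 511, 325 and 1349 CPM. CD4 T cells held 84, 149, 81 and 38 UMIs in 13, 11, 16 and 6 cells, at 86.3, 329, 66.7 and 95.8 CPM. The CD4 level in ADU-S100 tumours was 3.81 times untreated (2.90 to 5.04), and 81.9% of its UMIs lay in 3 of 114 cells. CD8 T cells had 1 Il17a UMI in all 4 libraries together.

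The shares of T cell Il17a UMIs held by each kind of T cell differed between libraries. Cells with Trdc, inside and outside the gate, held 10.0% and 51.9% of T cell Il17a in untreated tumours, and CD4 T cells held 23.3%. In ADU-S100 tumours the CD4 cells held 41.7%, the cells with Trdc 2.80% and 22.4%, and the other T cells, neither gated nor with Trdc, 33.1%. In anti-LTβR tumours the order was Trdc cells with alpha-beta UMIs (36.0%), other T cells (27.7%), CD4 (22.4%) and the gate (13.6%). In combination tumours the cells with Trdc held 37.9% and 45.7% and CD4 cells 10.98%. With so few cells behind each share, the shares are a description of these libraries.

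**Figure D3:**
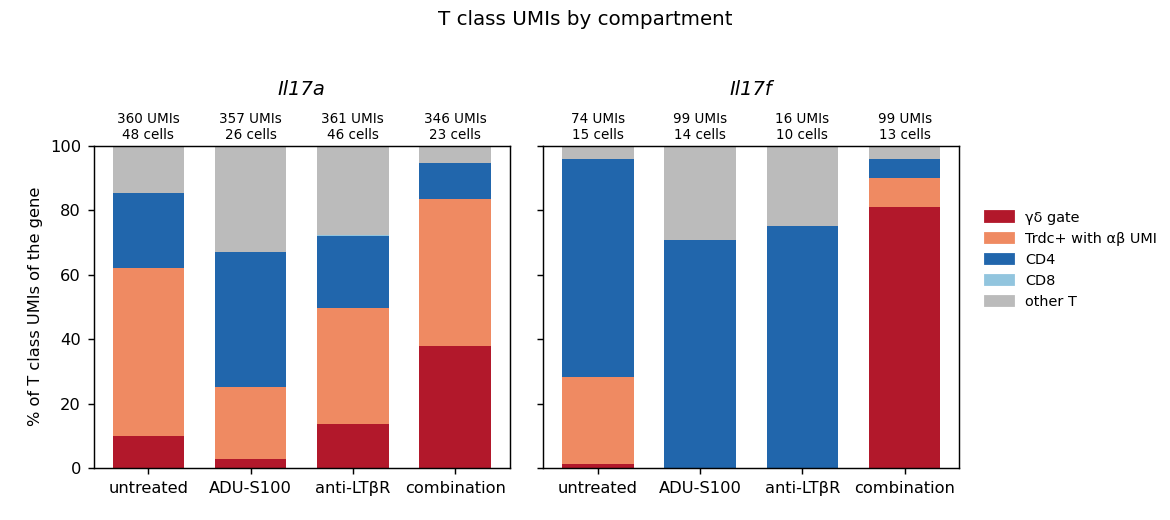
Stacked bars of the share of T cell Il17a (left) and Il17f (right) UMIs, in percent, held by the gamma-delta gate, Trdc cells with alpha-beta UMIs, CD4, CD8 and other T cells in each library, with UMIs and positive cells printed above. The CD4 share of Il17a is 41.7% in ADU-S100 and 10.98% in combination tumours.

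Il17f was sparser than Il17a, and CD4 T cells held most of its T cell UMIs in every library but the combination. The T class had 74 untreated, 99 ADU-S100, 16 anti-LTβR and 99 combination UMIs in 15, 14, 10 and 13 cells, at 13.2, 39.9, 2.48 and 29.998 CPM. CD4 T cells held 50, 70, 12 and 6 of these UMIs, at 51.4, 155, 9.89 and 15.1 CPM. The CD4 level was 3.01 times untreated (2.06 to 4.41) with ADU-S100, 0.193 times (0.0933 to 0.367) with anti-LTβR and 0.295 times (0.103 to 0.687) with the combination. The gamma-delta gate held 1, 0, 0 and 80 UMIs, and 76 of the 80 came from the cell with 104 Il17a UMIs. For the T class, the ratio of combination to untreated was 2.28 (1.67 to 3.13) with all cells and 0.712 (0.418 to 1.18) without the top cell of each library.

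Cells with Il17a differed in how often they also held Il17f. Of 46 CD4 T cells with Il17a, 25 also had Il17f (54.3%, exact binomial interval 39.0 to 69.1). Of 54 cells with both Trdc and Il17a, 7 had Il17f (12.96%, 5.37 to 24.9). The CD4 share was the higher in each library, at 53.8%, 81.8%, 31.3% and 66.7% against 8.70%, 0%, 0% and 41.7%, and the last pair has 6 and 12 cells behind it. T cells that were neither, with 42 Il17a-positive cells, stood at 14.3%.

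The 143 T cells with Il17a, a mix of CD4 cells, cells with Trdc and others, held several transcripts more often than the other T cells. Il23r was found in 58.7% of them and in 3.61% of the other 5511 T cells, and Il1r1, the receptor of IL-1, in 69.9% and 4.35%. Among transcription factor genes, Rora was found in 93.0% against 43.7%, Maf in 65.7% against 21.5%, and Zbtb16 in 30.8% against 2.79%. Il17re, a subunit of the receptor for IL-17C, was found in 15.4% against 1.16%, and Ccr6 in 20.3% against 2.59%. Several genes of cytotoxic and interferon-gamma-producing cells were rarer in them: Nkg7 was found in 4.20% against 56.7%, Ccl5 in 2.10% against 49.1%, Klrd1 in 4.20% against 42.5% and Ifng in 0.699% against 15.9%. Other genes of that list were close, with Klrk1 in 27.97% against 30.3% and Il2rb in 61.5% against 68.6%. Cd8a was found in 0.699% against 33.2%. The median depth was 2819 UMIs in the cells with Il17a and 2646 in the others.

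Variable-region transcripts separated the T cells further. Trgv6, the V segment of a gamma-delta lineage known for IL-17, was detected in 42 T cells, of which 15 had Il17a (35.7%), 30 had Il23r and 0 had Ifng. These cells held 297 of the 1424 T cell Il17a UMIs. Trdv4 was detected in 117 T cells, of which 33 had Il17a, and they held 592 of the UMIs. Trgv1 was detected in 124 T cells and Il17a in 1 of them, while 12 had Ifng. Trgv4 was detected in 37 T cells with Il17a in 2. Trgv2 was detected in 523 T cells, of which 103 had Trdc.

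Il23r, the IL-23-specific receptor subunit, was spread over more cells than Il17a. T cells held 78.8% of its 1037 UMIs and dendritic cells 14.6%. The T class had 261 untreated, 155 ADU-S100, 297 anti-LTβR and 104 combination UMIs in 100, 43, 88 and 52 cells, at 46.4, 62.5, 46.0 and 31.5 CPM. The level was 1.35 times untreated (1.10 to 1.65) with ADU-S100, 0.992 times (0.838 to 1.18) with anti-LTβR and 0.680 times (0.536 to 0.856) with the combination. With each cell thinned to 1000 UMIs these ratios were 1.26 (0.883 to 1.77), 0.887 (0.674 to 1.17) and 0.332 (0.216 to 0.499), a setting that also leaves out cells with fewer UMIs. Cluster 11 held 240 of the 261, 137 of the 155, 290 of the 297 and 100 of the 104 Il23r UMIs, and it was 25.9%, 28.8%, 28.1% and 19.4% of T cells. Within it, where Il23r is one of the leading genes, the level was 238, 250, 205 and 167 CPM, which is 1.05 times untreated (0.845 to 1.30), 0.860 times (0.722 to 1.02) and 0.702 times (0.550 to 0.890). The 3 cells with most held 13.8%, 25.2%, 16.8% and 23.1% of its T cell UMIs, well under the shares for Il17a.

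In the gamma-delta gate Il23r was found in 43.2%, 53.3%, 32.1% and 19.4% of cells, at 577, 855, 463 and 250 CPM from 56, 39, 74 and 16 UMIs. The combination level was 0.432 times untreated (0.232 to 0.765), and the intervals of ADU-S100 (0.958 to 2.27) and anti-LTβR (0.559 to 1.16) included 1. CD4 T cells stood at 40.1, 79.5, 70.9 and 47.9 CPM, below the gate in every library. Among dendritic cells, the mature cells held most Il23r, with 58, 22, 40 and 13 UMIs at 61.3, 33.2, 41.4 and 31.3 CPM. Plasmacytoid dendritic cells held 16 UMIs in the anti-LTβR library and none in the other 3, and cDC1 held none in any library.

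Gamma-delta and CD4 T cells were compared over the 4 libraries, the only contrast here with a sum on each side in every library. The test was edgeR's quasi-likelihood test with the library as a block and Benjamini-Hochberg adjustment over 4977 genes, and its spread also contains the differences between treatments. Of these genes 229 (4.60%) were higher and 216 (4.34%) lower in gamma-delta cells at an adjusted p under 0.05. Il23r was higher by 3.13 on the log2 scale (SE 0.25, edgeR adjusted p = 8.7e-09), in 4 of 4 libraries. Tcrg-C1 was higher by 5.76 (SE 0.33, edgeR adjusted p = 1.27e-10), with 3, 5, 14 and 4 UMIs in CD4 cells against 48, 14, 87 and 30. Il17a was 2.21 higher (SE 0.95) with an edgeR adjusted p of 0.356, and it was higher in 3 of 4 libraries, with ADU-S100 the exception. Without the ADU-S100 library the Il17a difference was 2.92 (edgeR adjusted p = 0.0405). Il17a also passed the threshold in thinned cells of all 4 libraries, so its call depends on that library and on the depth setting. Without the anti-LTβR library 149 genes were called higher and 124 lower. Ccr6 was at -0.76 with an edgeR adjusted p of 0.404, lower in 4 of 4 libraries. Il17f did not reach the filter on low counts and was not tested.

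Of 70 genes on lists of the IL-17 pathway and of the gamma-delta subsets, 44 were tested, of which 11 were higher and 7 lower, with a median of 0.39 beside -0.01 over all genes. Of the 7 tested surface and other genes of IL-17 cells, 4 were higher, among them Scart1 and Scart2, which encode scavenger receptors of gamma-delta cells. Of 9 tested receptors of inducing cytokines, Il23r and Il1r1 were higher and Il6ra and Il6st, both subunits of the IL-6 receptor, were lower. Of 8 tested transcription factor and kinase genes, Blk, Zbtb16 and Ahr were higher and Batf, Maf and Stat3 were lower. Blk, a kinase used by IL-17-producing gamma-delta cells, had 119 UMIs in gamma-delta cells and 0 in CD4 cells, which is at least 329-fold higher against a floor of 3 UMIs over the group. Scart1 stood at 969, 679, 500 and 93.6 CPM against 3.08, 6.62, 7.42 and 0 CPM, and the combination library was the lowest of the gamma-delta values. Klrk1 and Klrd1, receptors shared with NK cells, and Tmem176a and Tmem176b completed the higher genes. Csf2 and Gzmb completed the lower genes.

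Outside the lists, the largest differences towards gamma-delta cells included Abi3bp (log2 difference 8.69), Cdh10 (7.71), Clnk (6.73), Pde5a (6.43), Klrb1c (5.63), Adgrg5 (5.53) and Klra7 (5.32). Klrb1c encodes NK1.1 and Klra7 a Ly49 receptor. The largest differences towards CD4 cells were in genes with no UMI in gamma-delta cells, which are bounds against a floor of 3 UMIs. They included Foxp3, the regulatory T cell factor (at least 29.98-fold lower), Penk (at least 47.5-fold), Il1rl1, the IL-33 receptor (at least 28.4-fold), Il10 (at least 11.8-fold) and Cd40lg (at least 19.6-fold). Ccl1, Itgb8, Klrg1, Nckap5 and Dthd1 were the others. The summed level of 8 NK markers was 227, 65.8, 457 and 593 CPM in gamma-delta cells and 36.0, 44.1, 45.3 and 20.2 CPM in CD4 cells, with Klra4 and Klra8 at 0 in all gamma-delta sums. The summed level of 10 macrophage markers was 309, 87.7, 3058 and 406 CPM in gamma-delta and 923, 132, 228 and 209 CPM in CD4 cells. Their part in the differences was not tested.

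**Figure D4:**
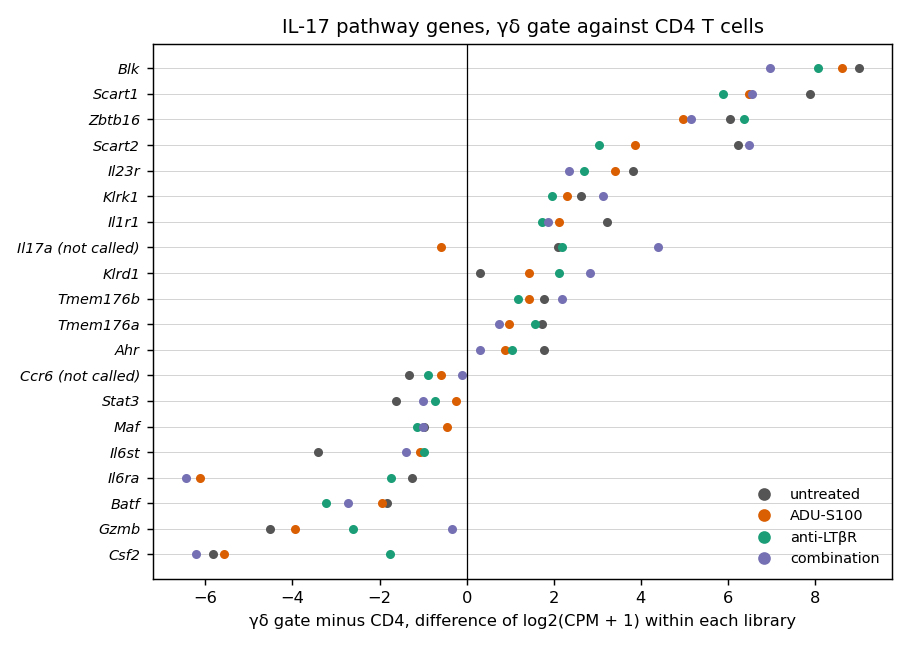
Difference of log2(CPM + 1) between the gamma-delta gate and CD4 T cells (horizontal axis) within each library, 1 point per library, for the called list genes and for Il17a and Ccr6, which were not called. The 4 points of Il23r all lie right of 0, and the ADU-S100 point of Il17a lies left of it.

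Within the gamma-delta gate, each treated library was set against untreated over the same 70 list genes. A gene was called when it differed at least 2-fold, the exact interval of the ratio excluded 1 and both libraries together held at least 20 UMIs. The 3 comparisons share the untreated library, and behind each is a sum of 15 to 53 cells. With ADU-S100, 26 list genes reached the minimum, 3 were called higher and 1 lower, beside 8.29% higher and 5.46% lower of all genes that reached it. With anti-LTβR these were 6 higher and 7 lower of 32 (all genes 4.50% and 5.03%), and with the combination 8 higher and 9 lower of 29 (4.26% and 6.83%).

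Of 13 genes of the interferon-gamma type of gamma-delta cell, 7 reached the minimum with anti-LTβR and 7 with the combination, and 5 were called higher in each. Only 4 of them reached it in the untreated library alone, of which Nkg7 and Il2rb were called higher in both. Xcl1, Klrd1, Tbx21 and Gzma had 2 to 8 untreated UMIs and reached it through the treated library, so that they could not have been called lower. The cytotoxic granule gene Nkg7 went from 258 CPM to 963 and 983 CPM (10 of 37 cells against 26 of 53 and 19 of 36), Il2rb from 371 to 1063 and 1076, Xcl1 from 61.8 to 407 and 374 and Klrd1 from 82.4 to 319 and 312. Il12rb2, a receptor subunit for IL-12, went from 51.5 to 288 and 406 CPM, and it was also called higher with ADU-S100, at 482 CPM from 3 cells. It had 5 untreated UMIs and reached the minimum through the treated library each time, so that it could not have been called lower either. Of the same 13 genes, the receptor gene Klrk1 was at 309 untreated, 238 anti-LTβR and 296 combination CPM and the chemokine gene Ccl5 at 845, 832 and 1560 CPM, neither of them called. Cd27 (61.8, 68.8 and 15.6 CPM) and Cxcr3 (61.8, 62.5 and 78.0 CPM) did not reach the minimum. Lower in both were Rora (1268 to 550 and 374 CPM), Il1r1 (567 to 219 and 187), Cxcr6 (629 to 294 and 187), Il1b and Cxcl2. In combination tumours Scart1 (969 to 93.6 CPM), Blk (515 to 125), Il23r and Tmem176a were called lower as well, while Il17a and Il17f were called higher through the single cell described above. Irf4 and Serpinb1a were called lower with anti-LTβR alone, Tbx21 higher with anti-LTβR and Gzma higher with the combination, from 3 cells. The NK and the macrophage markers given above were also highest in these 2 libraries, the 10 macrophage markers at 309 untreated, 3058 anti-LTβR and 406 combination CPM, and their part was not tested.

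The CD4 T cells include regulatory T cells, whose part differed between libraries. Cluster 12, led by Foxp3, held 39.4%, 28.9%, 18.4% and 18.0% of CD4 cells, and Foxp3 stood at 399.6, 291, 148 and 111 CPM in all CD4 cells and at 3.42 to 17.1 CPM outside that cluster. With ADU-S100, 9 of 45 list genes were called higher in CD4 cells and 3 lower, beside 1.70% and 3.41% of all genes. The higher genes included the 3 cytokine genes Il17a, Il17f and Il22, and Il22 had 9 untreated and 100 ADU-S100 UMIs, at 9.24 and 221 CPM, a ratio of 23.9 (12.1 to 53.7). The Il22 UMIs lay in 3 of 264 untreated and 4 of 114 ADU-S100 cells, and 3 cells held 98% of the latter, so this ratio rests on a handful of cells. Il1r1 was at 2.67 times untreated (1.86 to 3.84) and Serpinb1a at 3.22 times (2.26 to 4.64), with Scart2 and Gzmb called higher too. Scart2 had 4 untreated, 24 ADU-S100 and 36 anti-LTβR UMIs. Scart2 and Il22 reached the minimum through the treated library, so that they could not have been called lower. Ifng was lower at 0.482 times (0.289 to 0.772), as were Xcl1 and Ccl5, although 41 of the 44 untreated Xcl1 UMIs came from 1 cell. Il1b and Cxcl2, genes of myeloid cells, were called higher as well, and the summed level of 8 neutrophil markers in CD4 cells was 12.3, 1068, 35.4 and 93.3 CPM, whose part was not tested. With anti-LTβR, 1 of 46 was called higher, again Scart2, and 3 lower (all genes 2.58% and 1.49%), and with the combination 2 of 42 higher and 3 lower (2.40% and 2.34%). Il17f and Xcl1 were lower in both, and Ifng was at 2.23 times untreated (1.65 to 3.001) with the combination, where 1 cell held 58 of its 89 UMIs.

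Without cluster 12, a setting added after seeing the data, the ADU-S100 calls in CD4 cells were 6 higher and 4 lower of 43, beside 2.05% and 4.56% of all genes. Il17a stood there at 3.24 times untreated (2.46 to 4.30), Il17f at 2.55 times (1.75 to 3.74), Il1r1 at 2.18 times (1.503 to 3.18) and Serpinb1a at 2.53 times (1.76 to 3.65), all still called. Il22 and Scart2 were still called too, with the limit given above, and Scart2 was again the gene called higher with anti-LTβR. Il1b, Cxcl2 and Gzmb were no longer called, and Nkg7 was called lower. With anti-LTβR 1 was higher and 4 lower of 46 (all genes 2.37% and 1.93%), and Il17a was at 0.553 times (0.402 to 0.760), where the interval over all CD4 cells had included 1. With the combination 1 was higher and 8 lower of 39 (2.47% and 2.62%), and Ifng was at 1.55 times (1.15 to 2.09) and no longer called. The 8 lower genes included Il17f, Serpinb1a, Tmem176b, Klrd1, Klrk1 and Ccl5.

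Il23a, the p19 subunit of IL-23, was found mainly in neutrophils and in macrophages or monocytes. These held 59.1% and 38.5% of its 6095 UMIs, and ADU-S100 tumours held 4784 of all UMIs against 255 in untreated, 481 in anti-LTβR and 575 in combination tumours. Over all leukocytes the level was 5.84, 71.8, 7.82 and 12.8 CPM, or 12.3 times untreated (10.8 to 14.002) with ADU-S100, 1.34 times (1.15 to 1.57) with anti-LTβR and 2.20 times (1.89 to 2.56) with the combination. In contrast to Il17a, the transcript was spread over 964 cells in ADU-S100 tumours, where the 10 cells with most held 9.41%. In untreated tumours 65 cells held it, and the 10 with most had 40.8%.

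Neutrophils had 183 untreated, 2954 ADU-S100, 155 anti-LTβR and 310 combination UMIs in 41 of 493, 638 of 5288, 58 of 972 and 97 of 1292 cells. Their level was 196, 242, 87.9 and 205 CPM, so the larger ADU-S100 total went with more neutrophils, at a level 1.24 times untreated (1.06 to 1.44). This small difference in level depended on the processing, at 1.00 times (0.8102 to 1.26) in cells thinned to 1000 UMIs and 1.47 times (1.26 to 1.71) on the median-of-ratios scale. Anti-LTβR was at 0.448 times (0.360 to 0.558) and the combination at 1.05 times (0.869 to 1.26). Macrophages and monocytes had 69, 1757, 306 and 217 UMIs in 23 of 4008, 295 of 5857, 91 of 7112 and 85 of 8025 cells. Their level was 2.46, 40.4, 8.37 and 8.15 CPM, which is 16.4 times untreated (12.9 to 21.2) with ADU-S100, 3.40 times (2.61 to 4.49) with anti-LTβR and 3.31 times (2.51 to 4.41) with the combination. Combination stood at 0.202 times ADU-S100 alone (0.174 to 0.233). The 10 macrophages or monocytes with most held 68.1%, 23.1%, 44.8% and 48.4% of the UMIs.

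The cluster with most Il23a of the macrophage and monocyte class in the 3 treated libraries was number 1, which held 14, 1164, 214 and 107 of the class's 69, 1757, 306 and 217 UMIs in 290, 1229, 1260 and 842 cells. Its level was 6.08, 99.8, 31.1 and 33.6 CPM, so ADU-S100 was also the highest within the cluster. In untreated tumours cluster 5 held more, with 25 UMIs. Cluster 1 was also a larger part of the class in each treated library. Of the 2 neutrophil clusters, number 18 stood at 168, 371, 117 and 273 CPM and number 17 at 251, 158, 55.5 and 114 CPM. The cDC2, a type of dendritic cell, held 25 of the 26 dendritic Il23a UMIs of the ADU-S100 library, and the untreated dendritic cells held none.

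Il12b, the p40 partner that IL-23 needs, was at its highest level in another class. Mature dendritic cells stood at 1465, 1018, 750 and 1563 CPM of Il12b from 1387, 675, 725 and 650 UMIs, with 1 Il23a UMI in all 4 libraries together. Neutrophils held 0, 10, 0 and 1 Il12b UMIs. Macrophages and monocytes, a far larger class, stood at 9.09, 11.8, 3.15 and 11.97 CPM. They held 255, 514, 115 and 319 Il12b UMIs, more than their 69 and 217 Il23a UMIs in untreated and combination tumours. Cells with both transcripts numbered 0, 3, 0 and 1 among macrophages and monocytes, 0, 1, 0 and 0 among neutrophils and 0, 1, 0 and 0 among dendritic cells. In single cells of this depth a missing UMI does not show that the transcript was absent.

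**Figure D5:**
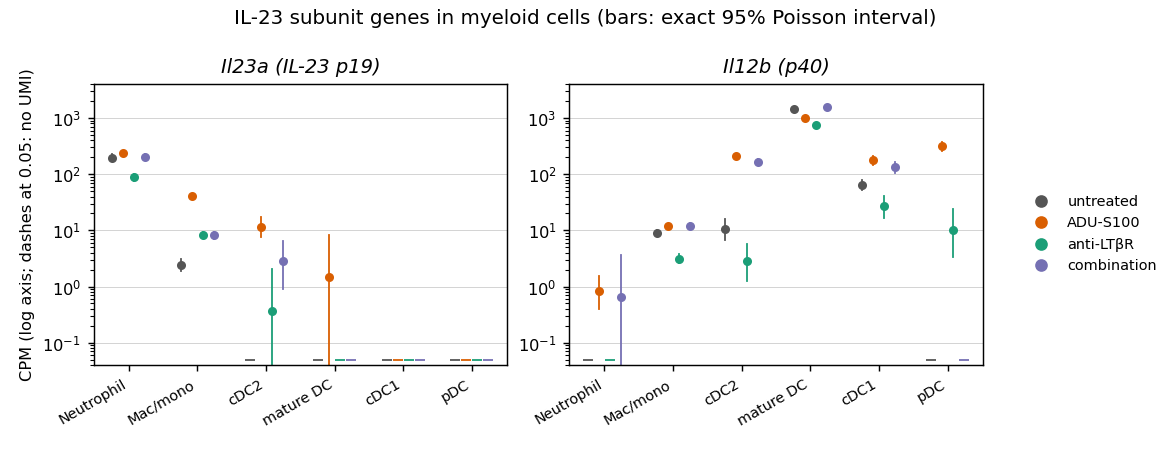
Level of Il23a (left) and Il12b (right) in CPM on a log axis, in neutrophils, macrophages and monocytes and 4 types of dendritic cell, 1 point per library with exact 95% Poisson intervals and dashes where there was no UMI. Neutrophils have 87.9 to 242 CPM of Il23a and at most 10 Il12b UMIs, and mature dendritic cells have 750 to 1563 CPM of Il12b.

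Other genes of the lists also moved in macrophages and monocytes. With ADU-S100, 13 of 47 list genes were called higher and 3 lower, beside 4.73% and 5.34% of all genes. They included the neutrophil growth factor gene Csf3 (0.392 to 8.50 CPM, 21.7 times untreated), the neutrophil chemokine gene Cxcl1 (15.1 times), Il6 (22.6 to 110 CPM, 4.88 times) and Il1b (2.52 times), with Il12a, Il1a, Lcn2, Cxcl2 and Cxcl3. All 5 tested IL-17 target genes and 5 of 7 inducing cytokine genes were among them. Of these, Csf3 had 11 and Il12a 12 untreated UMIs. Both were called higher with each treatment, but they reached the minimum through the treated library and could not have been called lower. Several of the called genes are also transcripts of neutrophils, which were 6.69% of untreated and 39.98% of ADU-S100 leukocytes. The summed level of 8 neutrophil markers in macrophages and monocytes was 192, 811, 308 and 320 CPM, none of them at 0, against 54854 to 81880 CPM in neutrophils, and their part in these calls was not tested. In ADU-S100 tumours Lcn2 was at 687 CPM in neutrophils and 16.5 in macrophages and monocytes, Cxcl2 at 47295 and 6792 and Il23a at 242 and 40.4, whereas Il6 was at 2.30 and 110 and Cxcl1 at 16.4 and 38.1 CPM. With anti-LTβR, 8 of 51 were higher and 2 lower (2.77% and 1.71%), with Il6 at 3.55 times untreated and Il12b at 0.346 times (0.275 to 0.433). With the combination, 10 of 49 were higher and 1 lower (3.13% and 1.46%). The higher calls included list genes of lymphocytes, namely Zbtb16, Ifng and Tbx21 with anti-LTβR and Xcl1, Il12rb2 and Gzma with the combination. The part of T and NK cell RNA in these calls was not tested. Scaling by the median of gene ratios in place of the total raised ADU-S100 ratios in macrophages and monocytes by 0.21 and in neutrophils by 0.25 on the log2 scale.

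Ccr6 was a gene of 3 lineages. Dendritic cells held 38.8% of its 997 UMIs, T cells 28.6% and the B class 27.2%. T cells had 108, 41, 88 and 48 UMIs, at 19.2, 16.5, 13.6 and 14.5 CPM, and only anti-LTβR had an interval below 1, at 0.711 times untreated (0.530 to 0.951). CD4 cells stood at 53.4, 66.2, 35.4 and 50.4 CPM, while the gamma-delta gate held 2, 2, 3 and 3 UMIs, too few to order. In dendritic cells the level was 20.8, 15.5, 31.8 and 23.0 CPM, highest in mature cells and cDC2. The B class had 7, 1, 134 and 129 Ccr6 UMIs in 110, 73, 536 and 1032 cells, but it joined 2 clusters in different proportions. Cluster 22, with Ms4a1 (CD20) at 622 to 1260 CPM, held 6, 8, 139 and 210 cells, and cluster 24, with the plasma cell gene Jchain at 12444 to 15916 CPM, held 104, 65, 397 and 822. In cluster 22 Ccr6 had 3, 0, 130 and 113 UMIs, at 104, 0, 234 and 251 CPM, so that the few untreated and ADU-S100 cells allow no comparison there. In cluster 24 it had 4, 1, 4 and 16 UMIs. No cell held many: over all leukocytes the 10 cells with most had 22.8%, 39.8%, 16.9% and 19.1% of Ccr6.

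The genes whose levels over 36 cell class and library profiles were most like each member were named by Pearson's r. The profiles share classes and libraries, so r is a description. Il17a was most like Ablim3 (r = 0.96), Adam12 (0.96) and Il23r (0.93), and Il23r most like Il1r1 (0.95), Adam12 (0.95) and Il17a. Il17f was most like Sgip1 (0.87), Il17a (0.80) and Tnfrsf25 (0.80). Il23a, set apart from the receptor genes, was most like Fpr1 (0.95), Mirt2 (0.94) and Lcn2 (0.93). Trdc was most like Trdv4 (0.93), Avil (0.88) and Cntn1 (0.86), and Tcrg-C1 most like Scart1 (0.95), Scart2 (0.93) and Trpm6 (0.91). Ccr6 had no close match, with Slc41a1 (0.80), Sdhaf1 (0.80) and Gpr55 (0.78) leading.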

How the data were processed

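Live CD45+ cells of 4 pooled tumour groups were profiled, with 1 library per group. The authors made UMI counts per gene and cell with Cell Ranger against mm10, and deposited them as filtered matrices of raw counts. The version is 7.1.0 in the submitters' notes and 8.0.1 in the file headers. Cells with 300 to 5000 genes and at most 6% mitochondrial UMIs were kept. A doublet caller marked 0, 0, 1 and 0 cells and had not worked, so the cells with the highest doublet scores, 0.4% per 1000 deposited cells, were removed. Cells were clustered (scanpy 1.11.5, 2000 variable genes, 30 components, 20 neighbours, resolution 1) and classes named from marker lists, where a cluster's fold was taken against the median over clusters, a choice made after seeing the data. Gamma-delta, CD4 and CD8 cells were gated within the T class by their constant-region and coreceptor UMIs. Tcrg-C1 was matched by its identifier, since the files call it Trgc1.

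UMIs were summed per class and library and divided by the summed total (CPM). Intervals are exact Poisson for levels, exact binomial (Clopper-Pearson) for shares, conditional binomial for ratios of levels and log-normal for ratios of shares, all at 95%. The gamma-delta and CD4 sums were compared with edgeR 4.0.16 (TMM, filterByExpr, quasi-likelihood test, library block), leaving out the gating genes. On simulated counts for 4668 genes this fit recovered 44.0% of changes of 1 and 93.0% of changes of 2 on the log2 scale, with 6 false calls. Named genes were the 7 members, the called list genes and, for the edgeR contrast, the 10 largest called differences each way that held in 4 of 4 libraries, leaving out receptor, immunoglobulin, ribosomal, mitochondrial, sex-linked and predicted genes. For each member, the 3 genes most like it were named. An allele of the tumour line and a gene of the lists are not reported here. The members and the lists were chosen with earlier results of these data known. The libraries' 52109958 to 85855398 UMIs set the precision. Alternatives changed the scale, depth, doublet removal, resolution, filters, gate and test, and left out single cells, a cluster and libraries.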

Additional observations from a re-analysis of the deposited data

Results flagged for a closer look

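Il23r in T cells was higher with ADU-S100 than untreated, at 1.35 times (1.10 to 1.65), and lower in the combination than with anti-LTβR alone, at 0.685 times (0.542 to 0.859). In cells thinned to 1000 UMIs the first ratio was 1.26 (0.883 to 1.77), and the combination stood at 0.332 times untreated (0.216 to 0.499). Within cluster 11, which held nearly all of it, the 2 ratios were 1.05 (0.845 to 1.30) and 0.816 (0.644 to 1.03), and both intervals included 1. Over the T class the addition of ADU-S100 thus went with opposite directions without and with the antibody, and this difference was not tested, since each group is 1 library.

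Il23a in macrophages and monocytes was higher with anti-LTβR than untreated, at 3.40 times (2.61 to 4.49), and lower in the combination than with ADU-S100 alone, at 0.202 times (0.174 to 0.233). This difference was not tested either.

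Il23a was also detected in cells of clusters that the marker lists left unnamed, at 11.4 CPM (7.23 to 17.1) in ADU-S100, 3.77 CPM (2.19 to 6.03) in anti-LTβR and 6.37 CPM (4.26 to 9.14) in combination tumours, with no UMI in the untreated library.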

How the results depend on the processing

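Of 263 alternative values, 24 for the gamma-delta share, 108 for the ratios of the 7 genes, 38 for the counts of list genes and 48 for the gamma-delta contrast stayed within the spread or call limit set for them. The gamma-delta share itself differed between gates and in thinned cells, a setting that changes the depth, the cells kept and the gate together: thinned cells gave 0.556%, 0.127%, 0.625% and 0.395%, a minimum of 2 Trdc UMIs 0.353%, 0.0756%, 0.315% and 0.125%, and Trbc UMIs allowed 1.14%, 0.257%, 1.13% and 0.556%. Over all alternatives for this share, the ADU-S100 share was 0.192 to 0.351 of the untreated share. The lower end came with a gamma constant UMI required and the upper end without neutrophils in the denominator. The anti-LTβR range was 0.818 to 1.12. The combination range was 0.355 to 0.711, and its interval included 1 in thinned cells alone. Without the cell with most UMIs in each library, Il17a in T cells against untreated was 0.730 with anti-LTβR and 1.09 with the combination, and Il17f with the combination turned to 0.712. Thinned to 1000 UMIs per cell, which also leaves out cells with fewer UMIs, the ratios to untreated in T cells were 1.87 (ADU-S100) and 1.37 (combination) for Il17a. They were 0.332 for Il23r and 0.514 for Ccr6 in the combination and 0.912 for Trdc with ADU-S100. Il23a in neutrophils was 1.00 with ADU-S100 and 0.329 with anti-LTβR in this setting. Without doublet removal Il17a in the combination was 1.36, and on the median-of-ratios scale Il23a in neutrophils with ADU-S100 was 1.47.

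At a minimum of 200 UMIs few list genes could be called. In gamma-delta cells 1 (ADU-S100), 3 (anti-LTβR) and 0 (combination) reached it, with higher and lower calls of 0 and 0 (all genes 1.32% and 6.58%), 1 and 1 (1.81% and 1.81%) and 0 and 0. In CD4 cells they were 4 and 1 of 15 (1.00% and 0.733%), 0 and 1 of 18 (0.508% and 0.592%) and 0 and 1 of 12 (0.969% and 1.25%). In macrophages and monocytes the lower calls with ADU-S100 were 0 of 36 (2.45%), anti-LTβR had 4 and 1 of 36 (1.14% and 0.346%) and the combination 6 and 0 of 35 (1.24% and 0.366%). With no minimum, ADU-S100 had 2 lower calls of 55 in gamma-delta cells (1.63%). On the median-of-ratios scale it had 5 higher of 26 there (10.99%) and 1 lower of 47 in macrophages and monocytes (3.38%). Without the cluster led by Foxp3, added after seeing the data, the combination had 1 higher and 8 lower calls of 39 in CD4 cells (2.47% and 2.62%).

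For gamma-delta against CD4 cells, DESeq2 called 168 genes higher and 140 lower, and the fit with no filter on low counts 287 and 462. Leaving out 1 library gave 149 to 204 higher and 124 to 230 lower calls, the fewest (149 and 124) without anti-LTβR. Thinned cells gave 74 and 105, and a gate that allowed Trbc UMIs, added after seeing the data, gave 490 and 500. Il17a passed the edgeR threshold without the ADU-S100 library (log2 difference 2.92, adjusted p = 0.0405) and in thinned cells (3.45, adjusted p = 5.45e-06), and Ccr6 with Trbc UMIs allowed (-1.95, adjusted p = 0.000508). Without the library block 238 genes were higher and 232 lower. That block pairs the gamma-delta and CD4 sums of a library. Between treatments, no paired analysis was possible because each group is 1 library. The small number of gamma-delta cells limits every value of the gate, and the cause of the values that moved was not tested.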
